A study of Mus musculus with 2 samples.

Results

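The data cover 9 genes that encode liver-enriched transcription factors, in cultured mouse hepatocytes that overexpressed either β-galactosidase or the RNA-binding protein HuR. The genes are Hnf4a, Cebpa, Cebpb, Foxa1, Foxa2, Foxa3, Nr5a2, Prox1 and Onecut1. They were chosen by name, as regulators known for liver identity, and 9 of the 20505 genes listed in both deposited tables matched. These genes and the gene lists used below were chosen with earlier results of these data known. Both groups were primary hepatocytes of C57BL/6 mice, freed by perfusing the liver with type II collagenase and cultured in DMEM with 5% fetal bovine serum. Both were infected overnight with an adenovirus, which carried β-Gal, a bacterial enzyme, in the control group and HuR in the other. Neither the age of the mice, the viral promoter nor the number of animals pooled is given in the sources used here. There was 1 library per group, so every difference below is between 2 libraries, with no replicate check and no test between conditions.

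Hepatocyte identity is held by a small network of DNA-binding proteins that activate one another and the genes of liver function. FOXA proteins open closed chromatin as pioneer factors, HNF4A and NR5A2 are nuclear receptors that bind nearby sites, C/EBP proteins switch on plasma protein and metabolic genes, and ONECUT1 acts early in hepatocyte and bile duct fate. PROX1 marks early hepatoblasts and acts in adult hepatocytes as a corepressor of HNF4A and NR5A2. HuR, encoded by Elavl1, binds U-rich and AU-rich stretches of mRNA, most often in the region after the stop codon, and is known for keeping bound mRNAs from decay. The comparison asks which of these mRNAs differ when HuR is in excess.

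Levels were deposited as FPKM, read numbers scaled to transcript length and library size. The totals implied by the values were 18357017 (β-Gal) and 17671387 (HuR) reads. Elavl1 was at 9.67 FPKM with β-Gal and 4480 FPKM in the library labelled HuR. A log2 fold change is log2((HuR + 1)/(β-Gal + 1)), and a gene was compared where its higher value reached 1 FPKM, which held for 12905. The median log2 fold change of those genes was -0.17, so an unremarkable gene lay slightly lower in the HuR library. A printed fold is the plain ratio of FPKM values, and its range in parentheses is a 95% counting interval from the exact Clopper-Pearson method on reads recovered from the FPKM values. The intervals cover counting error only, not differences between cultures or library preparations. Markers of the labelled cell type were present in both libraries, with Alb (albumin) at 25353 and 27642 FPKM. Of 12 hepatocyte markers, 12 were listed and 11 lay within 1.5-fold, beside 64.5% of all compared genes. Cps1, a urea cycle enzyme, stood at 8.41 and 3.17 FPKM. Markers of other cell types were present too and are given below.

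None of the 9 factors was at least 2-fold different on the log2 scale with the pseudocount, 0 higher and 0 lower, beside 5.35% of all compared genes higher and 8.31% lower. Cebpb was higher in the HuR library, at the edge of the 2-fold threshold, while Nr5a2, Foxa3 and Onecut1 were lower. Hnf4a and Cebpa differed by less than 1.5-fold in opposite directions, and Foxa1, Foxa2 and Prox1 had intervals that included 1. Without the pseudocount, 1 factor (Cebpb) was at least 2-fold higher, against 8.39% of all compared genes, and 2 (Nr5a2 and Onecut1) at least 2-fold lower, against 14.5%. The median log2 fold change over the 9 genes was -0.12, close to the -0.17 of all compared genes. Counting intervals lay wholly above 1 for 2 factors and wholly below 1 for 4. Among all compared genes with recovered reads these shares were 26.5% and 46.3%, so an interval clear of 1 was common at this depth. None of the 9 (0) had an interval wholly beyond 2-fold, against 4.49% of genes on the higher and 6.6% on the lower side. With the pseudocount 5 of the 9 lay within 1.5-fold either way, beside 64.5% of all compared genes.

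**Figure D1:**
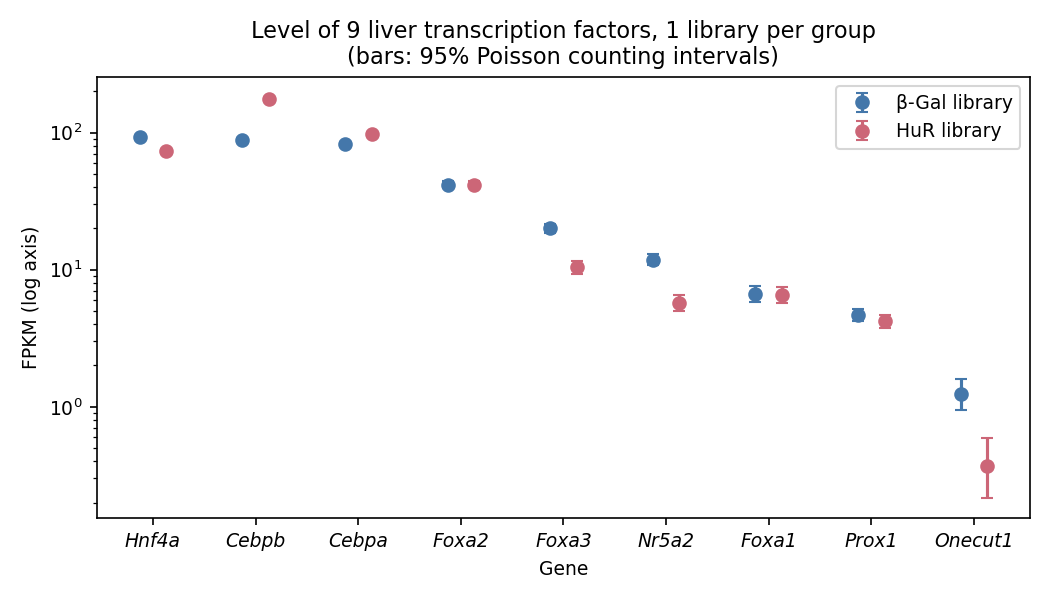
FPKM of the 9 factors (log axis) in the β-Gal and the HuR library, 1 point per library, with bars for 95% Poisson counting intervals. Cebpb stands higher in the HuR library (177 against 88.2 FPKM), and Foxa3, Nr5a2 and Onecut1 stand lower, while Foxa1 and Foxa2 lie level.

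The factors spanned a wide range of levels, here compared per transcript length. In the β-Gal library Hnf4a (92.0 FPKM), Cebpb (88.2 FPKM) and Cebpa (82.1 FPKM) led, and Hnf4a and Cebpb did not differ beyond counting error, with a ratio of Cebpb to Hnf4a of 0.959 (0.910 to 1.01). The Poisson intervals of Cebpb (84.7 to 91.8 FPKM) and Cebpa (79.5 to 84.8 FPKM) overlapped slightly. Foxa2, Foxa3, Nr5a2, Foxa1, Prox1 and Onecut1 followed in that order, and the Poisson intervals of neighbours did not overlap. In the HuR library the order changed at the top to Cebpb (177 FPKM), Cebpa (97.7 FPKM) and Hnf4a (73.5 FPKM). Lower down, Foxa1 at 6.57 FPKM (5.71 to 7.52) stood beside Nr5a2 at 5.71 FPKM (4.98 to 6.51), and their Poisson intervals overlapped. Among all 20505 listed genes Cebpb went from rank 1419 to rank 684 by level, Hnf4a from rank 1352 to 1708, and Nr5a2 from rank 6679 to 8124.

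Among the nuclear receptors, Hnf4a, the master regulator of hepatocyte differentiation, stood at 92.0 FPKM (3547 reads) with β-Gal and 73.5 FPKM (2728 reads) with HuR. It was therefore 1.25-fold lower (1.19 to 1.32), a log2 fold change of -0.32, or -0.15 relative to the median of all genes. Hnf4a (ENSMUSG00000017950) lies on the plus strand of chromosome 2 at 163506808 to 163572910 in GRCm38. The FPKM values do not separate its transcripts from the upstream and downstream promoters, known as P2 and P1, of which P1 is the one used in adult liver. Hnf4aos, an antisense RNA that overlaps it by 34913 bases, was recovered at only 2 and 4 reads.

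Nr5a2, which encodes LRH-1, a regulator of bile acid and cholesterol genes, was recovered at 472 reads with β-Gal and 220 reads with HuR. This corresponds to 11.8 and 5.71 FPKM, 2.07-fold lower (1.76 to 2.43) and a log2 fold change of -0.93, just inside the 2-fold threshold with the pseudocount. Relative to the median of all genes it was -0.76. The counting interval held 2-fold and did not reach 1. Nr5a2 (ENSMUSG00000026398) is encoded at 136842571 to 136960448 of chromosome 1 (minus strand). The ratio of Nr5a2 to Hnf4a, which does not depend on how the libraries were scaled, was 0.128 (0.116 to 0.141) with β-Gal and 0.0776 (0.0673 to 0.0891) with HuR. Those intervals did not overlap, so within these libraries Nr5a2 made up less beside Hnf4a.

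The 3 FOXA genes, paralogs that encode pioneer factors with nearly the same DNA-binding domain, differed in their ratios, with Foxa3 lower and intervals that included 1 for the others. With the GC and length trend removed all 3 were below 0, at -0.37 for Foxa1, -0.36 for Foxa2 and -0.97 for Foxa3. Foxa2 was level, at 41.5 FPKM (1112 reads) and 41.6 FPKM (1073 reads), a ratio of 1.00 (0.921 to 1.09). Foxa1 was level too, at 6.70 and 6.57 FPKM, with a ratio of 0.980 (0.806 to 1.19) and a log2 fold change of -0.02 that turned to 0.14 relative to the median of all genes. For both genes the libraries overlapped within counting error. Foxa3, the paralog most restricted to differentiated liver and gut, was lower in the HuR library, at 20.0 FPKM (747 reads) with β-Gal and 10.4 FPKM (374 reads) with HuR. It was 1.92-fold lower (1.70 to 2.18), with a log2 fold change of -0.88, or -0.71 relative to the median. Foxa3 (ENSMUSG00000040891) lies on chromosome 7, minus strand, at 19013284 to 19023538, Foxa2 (ENSMUSG00000037025) on chromosome 2 at 148042877 to 148046969, and Foxa1 (ENSMUSG00000035451) on chromosome 12 at 57540628 to 57546916.

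The balance within the FOXA family shifted accordingly. Foxa3 made up 29.3% of summed FOXA FPKM with β-Gal and 17.7% with HuR, Foxa2 60.9% and 71.0%, and Foxa1 9.83% and 11.22%. Summed FOXA expression was 68.2 and 58.5 FPKM. The ratio of Foxa3 to Foxa2 was 0.481 (0.438 to 0.529) in the β-Gal library against 0.2498 (0.221 to 0.281) in the HuR library. Foxa1 is the one factor whose FPKM values did not resolve into whole reads with the annotated lengths, so its interval rests on estimated read numbers. Sympk, which starts 838 bases from Foxa3 on the other strand, stood at 128 and 147 FPKM and did not share its direction.

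The C/EBP genes encode leucine zipper factors, of which C/EBPα goes with quiescent, differentiated hepatocytes and C/EBPβ with the acute phase, stress and regeneration. Cebpb stood at 88.2 FPKM (2435 reads) with β-Gal and 177 FPKM (4698 reads) with HuR, a ratio of 2.004 (1.91 to 2.11). Its log2 fold change was 0.99, just under the 2-fold threshold, 1.16 relative to the median of all genes, where it passed, and 0.34 with the trend in GC content and transcript length removed. Cebpa stood at 82.1 FPKM (3609 reads) and 97.7 FPKM (4135 reads), 1.19-fold higher (1.14 to 1.24), with a log2 fold change of 0.25 that turned to -0.03 with the GC and length trend removed. Cebpb (ENSMUSG00000056501) lies on the plus strand of chromosome 2 at 167688915 to 167690418 and Cebpa (ENSMUSG00000034957) on chromosome 7 at 35119293 to 35121928. The ratio of Cebpb to Cebpa went from 1.07 (1.02 to 1.13) to 1.81 (1.73 to 1.89). Cebpb therefore took 51.8% of their summed FPKM with β-Gal and 64.4% with HuR.

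Some of the Cebpb reads could come from another gene. The annotated span of Tmem189, on the opposite strand, overlaps Cebpb by 908 bases, and without a stated strand setting the reads cannot be told apart there. Tmem189 stood at 34.5 and 30.9 FPKM, so it did not move with Cebpb. A530013C23Rik, a non-coding RNA that begins 758 bases downstream on the same strand, was recovered at 11 and 29 reads. Cebpd, another C/EBP gene of the acute phase, was likewise higher, at 8.31 and 17.2 FPKM, a ratio of 2.07 and a log2 fold change of 0.96. Cebpg, a further C/EBP gene, went the other way, at 44.2 FPKM with β-Gal and 32.3 FPKM with HuR. Its ratio was 0.730 (0.675 to 0.789), a log2 fold change of -0.44. The choice to show Cebpd and Cebpg was made with their levels already known.

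Macrophages also express Cebpb and Cebpa, and their markers were higher in the HuR library. Of 12 listed macrophage markers 9 were compared, of which 4 were at least 2-fold higher and 0 lower (44.4% and 0%, beside 5.35% and 8.31% of all compared genes), and their summed level was 70.2 FPKM with β-Gal and 150 FPKM with HuR. Cd68, a lysosomal glycoprotein, stood at 39.97 and 90.4 FPKM, the scavenger receptor Marco at 5.55 and 14.8 FPKM, and lysozyme Lyz2 at 7.53 and 10.3 FPKM. In bulk RNA, more cells of a type and more RNA per cell cannot be told apart. The part of these cells in the Cebpb difference was not tested. Spi1, a defining factor of macrophages, was at 2.37 and 2.96 FPKM.

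Prox1, the homeobox corepressor, differed by less than counting error, at 4.65 FPKM (408 reads) and 4.202 FPKM (355 reads), 1.11-fold lower with an interval that included 1 (0.957 to 1.28). Its log2 fold change of -0.12 turned to 0.05 once log2 fold changes were centred on the all-gene median. Prox1 (ENSMUSG00000010175) is encoded at 190118035 to 190170714 of chromosome 1 (minus strand). Its antisense neighbours were at or near the detection limit, with Prox1os at 9 and 8 reads and Gm28172 at 1 and 0. Lymphatic endothelium is another known source of Prox1 in liver. Of its markers, the receptor gene Flt4 stood at 3.87 and 1.54 FPKM, and Lyve1, shared with sinusoidal endothelium, was recovered at 25 and 34 reads, with an interval of the ratio that included 1 (0.818 to 2.47). Of all 7 lymphatic and sinusoidal markers compared, 2 were at least 2-fold higher (Stab1 and Eng, of sinusoidal or vascular endothelium) and 0 lower. These are 28.6% and 0%, beside 5.35% and 8.31% of all compared genes. The summed level of the endothelial markers was 26.4 FPKM with β-Gal and 43.3 FPKM with HuR. Their part in the Prox1 values was not tested.

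Onecut1, which encodes HNF6, was the scarcest factor, at 1.24 FPKM from 59 reads with β-Gal and 0.372 FPKM from 17 reads with HuR. The ratio was 3.34-fold lower (1.92 to 6.11), the farthest from 1 of the 9, while the log2 fold change was -0.71, since the pseudocount compresses so low a level. The interval is wide but did not include 1. Onecut1 (ENSMUSG00000043013) lies on chromosome 9, plus strand, at 74861921 to 74891781. Gm20649, a non-coding RNA annotated on the same strand, overlaps it by 29556 bases. Gm20649 was not among the genes listed, so no level is available for it. Onecut1 is also expressed in bile duct cells. Of 7 cholangiocyte markers compared, 3 were at least 2-fold lower and 1 higher (42.9% and 14.3%, beside 8.31% and 5.35% of all compared genes). Their sum was 80.6 and 88.7 FPKM, led by Spp1 (osteopontin, 50.8 and 71.9 FPKM), whereas the biliary keratin Krt19 stood at 9.49 and 4.78 FPKM. Their part in the Onecut1 difference was not tested.

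Several of the 9 genes, among them Hnf4a, Nr5a2 and FOXA genes, are also expressed in gut epithelium, and FOXA genes in lung epithelium. Traces of both tissues were present. Of 10 intestinal markers compared, 8 were at least 2-fold lower and 0 higher in the HuR library. These are 80% and 0%, beside 8.31% and 5.35% of all compared genes. The sum over the 12 listed was 97.7 FPKM with β-Gal and 19.5 FPKM with HuR. Reg3b, an antimicrobial lectin, stood at 21.3 and 1.34 FPKM, the lectin Lgals4 at 21.96 and 6.77 FPKM, and villin, Vil1, at 16.9 and 4.82 FPKM. Cdx1, an intestine-defining factor, was at 0.716 FPKM and listed at 0. The 8 lung markers summed to 33.6 and 0.368 FPKM, of which Sftpc was at 11.0 and 0.0704 FPKM. Scgb1a1, at 174 reads with β-Gal, was listed at 0 in the HuR library. Nkx2-1 and Scgb3a2 were listed at 0 there too, but had only 4 reads each with β-Gal and were too scarce to be compared. Of 10 pancreas markers 5 were in the tables, and they summed to 5.50 and 7.66 FPKM. The intestinal and lung markers were lower, as were Foxa3 and Nr5a2, while Foxa1 and Foxa2 had ratios of 0.980 and 1.00. The part of gut RNA in the Foxa3 and Nr5a2 differences was not tested. Nor was the part of lung RNA in the values of the FOXA genes.

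**Figure D2:**
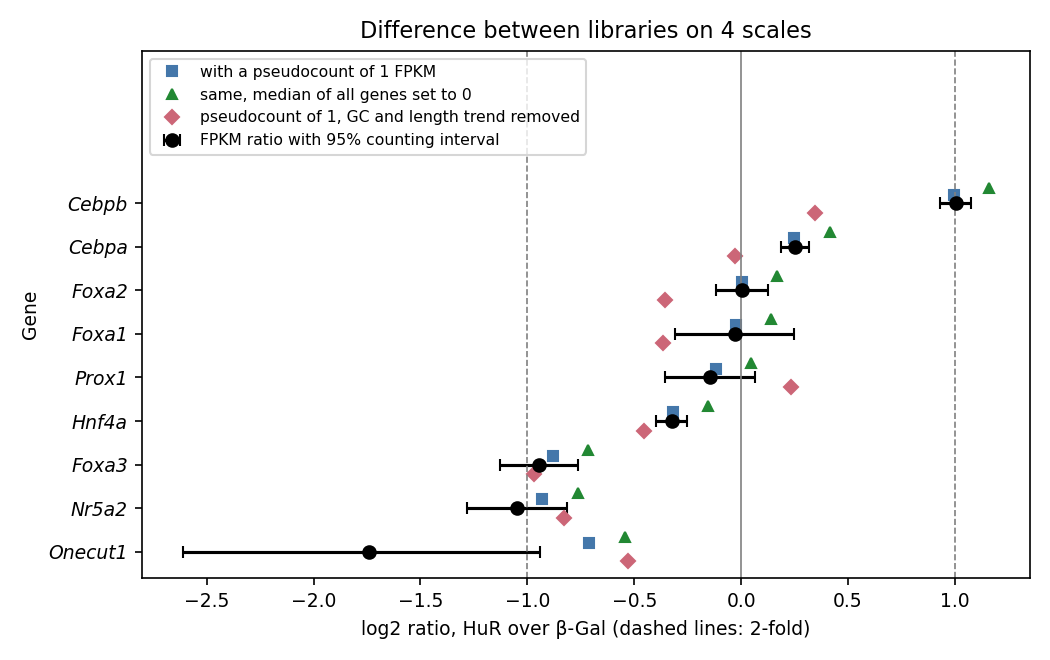
log2 ratio of HuR over β-Gal for each factor on 4 scales: the FPKM ratio with its 95% counting interval, with a pseudocount of 1 FPKM, with the median of all compared genes set to 0, and with the trend in GC content and length removed. Cebpb is the only point past the upper 2-fold line on any scale, and removing the GC and length trend brings it from 0.99 to 0.34.

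Transcript base composition went with the differences across the whole table. Over 12678 compared genes with an annotated sequence, GC content and log2 fold change had a Spearman correlation of 0.31, a description across genes that share the same 2 libraries. The median log2 fold change was -0.46 in the quintile of genes with the lowest GC content and 0.09 in the quintile with the highest. Cebpb has the highest GC content of the 9, at 67.2%, and its 0.99 lay above the upper quartile of 0.50 in its quintile. Nr5a2 (49.3%) and Onecut1 (48.5%) have the lowest, and both lay below the lower quartiles of their quintiles, -0.93 against -0.53 for Nr5a2 and -0.71 against -0.64 for Onecut1. Foxa3, at 54.4%, lay at -0.88 where the median of its quintile was -0.03 and the lower quartile -0.39.

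Removing a quadratic trend in GC content and transcript length, with the median of all genes kept, left Foxa3 at -0.97 and Nr5a2 at -0.83. Onecut1 was then at -0.53 and Cebpb at 0.34. Cebpa moved from 0.25 to -0.03, Foxa2 from 0.00 to -0.36, Foxa1 from -0.02 to -0.37 and Prox1 from -0.12 to 0.23. The sign of Cebpa, Foxa2 and Prox1 therefore depended on this choice. Relative to the median of all genes, Cebpa went from 0.41 to 0.14 and Prox1 from 0.05 to 0.40, so both kept their sign. On that scale Foxa2 went from 0.17 to -0.19 and Foxa1 from 0.14 to -0.20. Hnf4a stayed lower, at -0.45. The part of GC content in each difference was not tested.

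**Figure D3:**
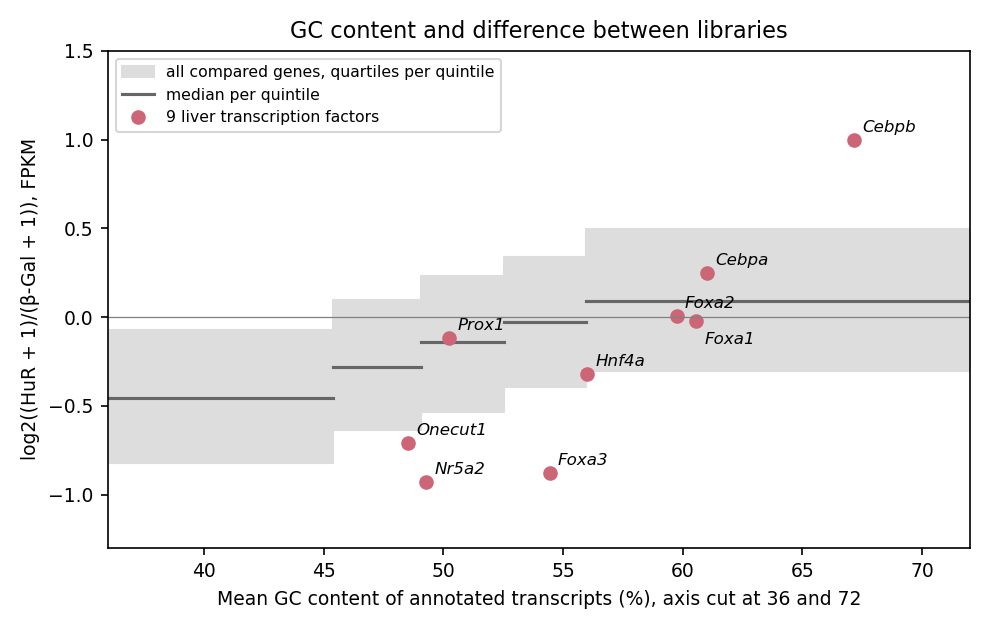
Mean GC content of annotated transcripts (percent) against log2((HuR + 1)/(β-Gal + 1)) for the 9 factors, with the median and quartiles of all compared genes in quintiles of GC content as lines and bands. Cebpb lies above the band of its quintile, and Foxa3, Nr5a2 and Onecut1 lie below theirs.

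HuR binds U-rich and AU-rich RNA, so the region after the stop codon was searched in the longest coding transcript of each factor, from GENCODE M21. The AU-rich pentamer ATTTA was counted on the transcript strand, overlaps included, as was the U-rich heptamer TTTNTTT. Of 10935 compared genes with such a region, 64.2% held at least 1 ATTTA and 64.1% at least 1 TTTNTTT. Cebpb and Foxa3 held 0 ATTTA but the most U-rich heptamers per length, 12 in 506 bases for Cebpb and 13 in 854 bases for Foxa3. Onecut1 held 7 ATTTA and 1 heptamer in 2183 bases, Nr5a2 4 and 8 in 2892 bases, and Prox1 16 and 14 in 5185 bases. Foxa1 held 4 ATTTA and 6 heptamers, Foxa2 3 and 1, Hnf4a 2 and 5, and Cebpa 0 and 6.

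The windows of 30 bases with the most ATTTA, and among equals the most T, are shown for 4 factors, to set 2 that were lower (Onecut1 and Nr5a2) beside 2 that were close to level (Prox1 and Foxa2). Each is written 5′ to 3′ on the transcript strand with T for U, capitals mark ATTTA, and coordinates are GRCm38. The Onecut1 window lies at chr9:74891219-74891248 (plus strand), Nr5a2 at chr1:136843792-136843821 (minus), Prox1 at chr1:190118441-190118470 (minus) and Foxa2 at chr2:148042955-148042984 (minus).
Onecut1: ATTTAaattttgactttttccaaatcattt
Nr5a2: tttctggctttggaatagtttATTTAtatt
Prox1: ATTTAttggtttaATTTAtcctaATTTAtt
Foxa2: ATTTAATTTAtggtttctgcgtgctttatt

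Cebpb and Foxa3, with 0 pentamers and many U-rich heptamers, were higher and lower in the HuR library respectively. Over the whole region, Prox1 (16 pentamers), Foxa1 (4) and Foxa2 (3) differed by less than counting error, while Onecut1 (7) and Nr5a2 (4) were lower. Cebpa, with 0 pentamers, was 1.19-fold higher, and Hnf4a, with 2, was 1.25-fold lower. The part of either letter pattern in these differences was not tested. Over all compared genes the median log2 fold change went from -0.02 in the 3916 genes with 0 ATTTA to -0.49 in the 1542 with 6 or more, while the median GC content went from 54.0% to 45.7%. With the GC and length trend removed, the same medians were -0.16 and -0.22. A match is a string of letters, not a shown binding site.

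The factors are known to regulate one another through their promoters, so the start sites of all 9 were searched in the RefSeq promoter table of GRCm38.p6, which gives 14 windows for them, each from 250 bases before to 50 bases after a start. Both strands were searched for TGTTTAC (FOXA factors), CAAAGTCCA (HNF4A), CAAGGTCA (NR5A2), ATCAAT (ONECUT1) and TTGCNNAA (C/EBP factors). Over all 32851 windows these were present in 3.65%, 0.475%, 1.56%, 7.54% and 10.8% respectively. Of the 14 windows 4 held at least 1 of them. None of the windows of Cebpa, Cebpb, Foxa3, Prox1 and Onecut1 held one, which says only that these letters are absent there.

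Those 4 windows, from 4 factors, are shown to place these motifs. The windows are written 5′ to 3′ on the gene's strand, with motif matches on either strand in capitals. The Foxa1 window (chr12:57546062-57546361, minus strand) has a FOXA motif that starts 141 bases before the start site. The Foxa2 window (chr2:148046920-148047219, minus) has an ONECUT1 motif 213 bases before it. The upstream Hnf4a window (chr2:163506607-163506906, plus) has an ONECUT1 motif 59 bases before it. The Nr5a2 window at the downstream of its 2 start sites (chr1:136953581-136953880, minus) has a C/EBP motif 243 bases before it.
Foxa1: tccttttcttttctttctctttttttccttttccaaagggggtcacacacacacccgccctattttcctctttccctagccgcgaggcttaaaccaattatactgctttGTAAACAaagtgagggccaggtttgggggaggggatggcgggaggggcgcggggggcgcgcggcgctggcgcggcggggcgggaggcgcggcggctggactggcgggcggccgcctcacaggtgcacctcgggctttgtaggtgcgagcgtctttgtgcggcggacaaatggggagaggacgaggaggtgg
Foxa2: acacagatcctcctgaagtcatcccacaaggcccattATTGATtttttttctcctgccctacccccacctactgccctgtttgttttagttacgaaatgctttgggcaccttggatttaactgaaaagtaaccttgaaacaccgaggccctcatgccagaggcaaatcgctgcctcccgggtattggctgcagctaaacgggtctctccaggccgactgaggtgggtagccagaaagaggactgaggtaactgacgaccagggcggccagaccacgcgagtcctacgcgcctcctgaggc
Hnf4a upstream: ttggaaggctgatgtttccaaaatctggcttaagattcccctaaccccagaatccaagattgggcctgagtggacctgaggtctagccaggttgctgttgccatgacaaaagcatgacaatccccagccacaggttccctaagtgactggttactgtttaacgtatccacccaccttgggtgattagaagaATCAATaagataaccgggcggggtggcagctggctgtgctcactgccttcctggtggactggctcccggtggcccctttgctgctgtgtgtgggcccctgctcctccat
Nr5a2 downstream: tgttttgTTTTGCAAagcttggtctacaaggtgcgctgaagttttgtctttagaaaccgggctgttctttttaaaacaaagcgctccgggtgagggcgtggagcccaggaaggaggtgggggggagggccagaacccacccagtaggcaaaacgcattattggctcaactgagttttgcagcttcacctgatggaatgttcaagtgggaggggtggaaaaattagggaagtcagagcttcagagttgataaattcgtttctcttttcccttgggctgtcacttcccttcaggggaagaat

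Beside the sequences, the levels were mixed. Foxa2 and Hnf4a, which each have a window with an ONECUT1 motif, stood at ratios of 1.00 and 0.799 of HuR to β-Gal, with Onecut1 itself at 0.299. The other windows of both genes held none of the motifs. For Hnf4a the motif lies in the upstream window, whereas the downstream promoter is the one used in adult liver. Nr5a2, whose window holds a C/EBP motif, was 2.07-fold lower while Cebpb was 2.004-fold higher. No factor binding was measured.

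Of 36 listed genes for other liver transcription factors and their partners 31 were compared, and 6 of them were lower by 2-fold or more and 0 higher. These are 19.4% and 0% of the set, beside 8.31% and 5.35% of all compared genes, and the median log2 fold change was -0.44. Nr1h4, Ppara, Nr1i2, Hlf and Zbtb20 were among them. Nr1h4, the bile acid receptor FXR, stood at 12.97 and 2.42 FPKM, 5.36-fold lower (4.24 to 6.83). Hlf, a circadian PAR leucine zipper factor, went from 4.05 to 0.998 FPKM, 4.06-fold lower (2.82 to 5.98). Ppara, which drives fatty acid oxidation, was 3.62-fold lower, the xenobiotic receptor Nr1i2 3.12-fold and Zbtb20, a repressor of fetal Afp, 2.25-fold (2.05 to 2.47). Nr1h4, Nr1i2 and Ppara are expressed in intestine too, whose summed markers stood at 97.7 and 19.5 FPKM, and the part of intestinal RNA in their differences was not tested.

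The most abundant factors of that set lay close to level. Atf5, a stress-induced leucine zipper factor, stood at 399 and 326 FPKM. Creb3l3, a liver factor of the endoplasmic reticulum membrane, stood at 135 and 165 FPKM and Rxrb, a partner of many nuclear receptors, at 128 and 165 FPKM.

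Known target genes of HNF4A, C/EBP factors, FOXA factors, NR5A2 and ONECUT1 were joined into 63 genes that are not among the 9 themselves. Of these 61 were compared, and PROX1 had no target list. None was at least 2-fold higher (0) and 11 were at least 2-fold lower, 18.0% beside the 8.31% of all compared genes, while the median log2 fold change of -0.11 (0.055 relative to the median of all genes) lay near the -0.17 of all genes. G6pc, which encodes the last enzyme of glucose release and is on 4 of the lists, stood at 36.9 and 4.50 FPKM, 8.19-fold lower (7.05 to 9.56). Mia2, a secretory pathway gene, stood at 132 and 42.0 FPKM, the liver pyruvate kinase Pklr at 723 and 279 FPKM, and the epithelial cadherin Cdh1 at 93.8 and 36.3 FPKM. The most abundant targets were level or higher, with Alb at a ratio of 1.09, Apoa2 at 3354 and 5221 FPKM and Apoc3 at 2028 and 2667 FPKM.

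By factor, 4 of 23 compared HNF4A targets were at least 2-fold lower, 2 of 19 C/EBP targets, 5 of 14 FOXA targets, 3 of 15 NR5A2 targets and 3 of 8 ONECUT1 targets. As shares these are 17.4%, 10.5%, 35.7%, 20% and 37.5%, beside 8.31% of all compared genes. The lists share members, so these counts are not independent, G6pc alone counts in 4 of them, and the ONECUT1 list holds Foxa2, 1 of the 9. The median was -0.49 for NR5A2 targets and -0.50 for ONECUT1 targets, and 0.06, 0.19 and 0.08 for HNF4A, C/EBP and FOXA targets. These medians describe 2 libraries and no test was made between the lists. For NR5A2 the lower genes were Cyp8b1, a sterol hydroxylase of bile acid synthesis (5.31 and 1.57 FPKM), Nr1h4 and Acss2, an acetyl-CoA synthetase (26.2 and 10.8 FPKM). Scarb1, the HDL receptor, went the other way, at 82.1 and 143 FPKM. Cyp7a1, at 0.0248 FPKM (1 read) in β-Gal and listed at 0 in the HuR library, was too scarce to be compared. The genes Cyp8b1, Acss2, Cyp7a1 and Scarb1 are named after their values had been seen.

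**Figure D4:**
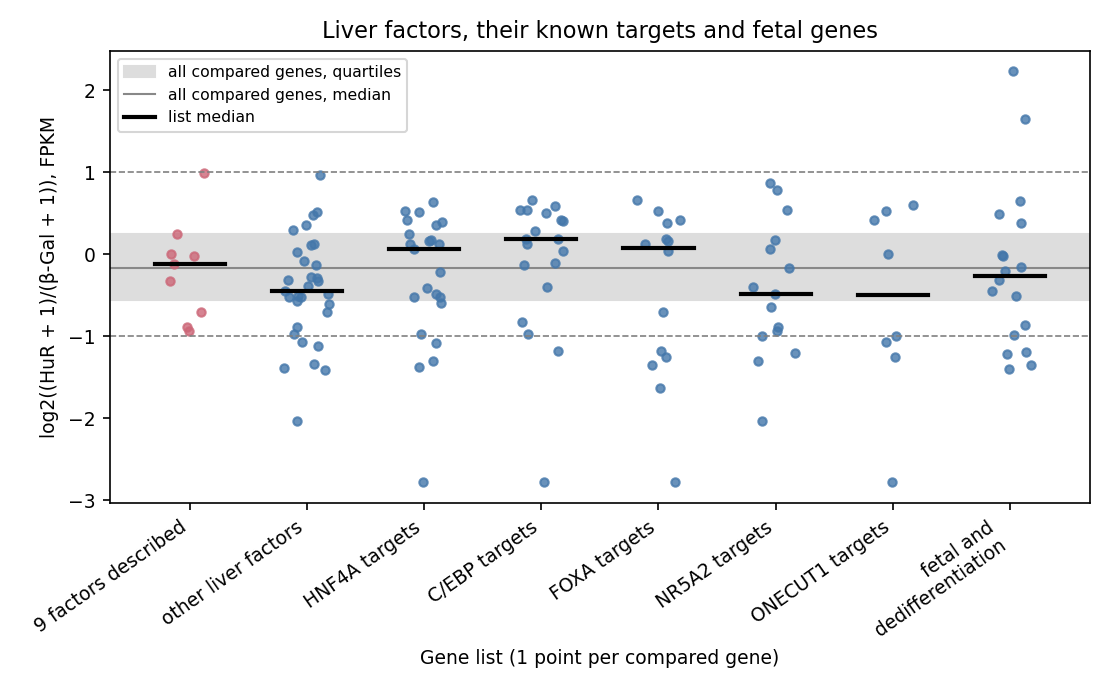
log2((HuR + 1)/(β-Gal + 1)) of each compared gene in 8 lists, with black bars for list medians and a grey band for the quartiles of all compared genes. The 9 factors all lie between the dashed 2-fold lines, and other liver factors and NR5A2 and ONECUT1 targets have medians of -0.44, -0.49 and -0.50, below the -0.17 of all genes.

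Genes of fetal liver and of dedifferentiation, which culture is known to raise in hepatocytes, did not go one way. Of 25 listed genes 18 were compared, and 2 were higher by 2-fold or more while 4 were lower. These are 11.1% and 22.2%, beside 5.35% and 8.31% of all compared genes, and the median was -0.26. Snai1, a repressor of Cdh1 and of Hnf4a, stood at 0.504 and 6.07 FPKM, 12.1-fold higher (7.11 to 21.99), and the biliary keratin Krt7 at 0.199 and 2.76 FPKM. Epcam, an epithelial progenitor marker, stood at 2.14 and 0.194 FPKM, and the YAP target Ccn2 at 16.6 and 6.59 FPKM. The abundant members were closer to level, with Vim at 257 and 252 FPKM, Ccn1 at 448 and 328 FPKM and Myc at 160 and 139 FPKM. With 2 libraries no likeness of pattern to other genes was measured.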

How the data were processed

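RNA of 2 libraries, 1 per group, was sequenced, and groups were taken from the overexpression label. The values are FPKM as deposited, in a table for each library. Per the submitters' processing notes, TopHat2, HTSeq 0.6.1 and GRCm38 were used, in roles the notes do not state. For annotation, strand setting and gene filter, the sources used here give nothing. Both tables listed 20505 genes, with 0 genes at 0 in the β-Gal table and 2233 at 0 in the HuR table, so a gene at 0 in β-Gal could not be compared.

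From there, 20133 identifiers were matched to GENCODE mouse M21. Reads were recovered as FPKM times the rounded mean transcript length times a library total found from the steps between values, and lay within 0.02 of a whole number in both libraries for 73.3% of matched genes and for 8 of the 9 factors. One read in a transcript of 2 kb was worth 0.0272 FPKM (β-Gal) or 0.0283 FPKM (HuR). Recovered reads gave counting intervals only, never a count test. The recovery and intervals were checked on simulated data. Calculations used Python 3.11.15 with scipy 1.17.1.

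The factors and gene lists were chosen with earlier results of these data known. Named list genes were the 5 with the largest log2 fold change and the 3 of highest level in each list, and the 3 of highest level among markers. Cps1, Spi1, Cdx1, Nkx2-1, Scgb3a2 and Lyve1 fall outside this rule and were named after their values had been seen. The alternatives were 2 other pseudocounts, 2 other filters, another centring, another threshold, calls from counting intervals, and removal of the GC and length trend. Some genes and sequences are not reported here.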

Additional observations from a re-analysis of the deposited data

How the results depend on the processing

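No paired analysis was possible because each group had 1 library. At a pseudocount of 0.1 FPKM, 1 of the 9 factors was at least 2-fold higher and 2 lower, and 1 other liver factor was higher. Among all 12905 compared genes, 1035 were then higher and 1762 lower. At a pseudocount of 5 FPKM, 260 genes were higher and 330 lower, with 1 other liver factor (median -0.28), 6 targets and 1 fetal gene lower and 1 fetal gene higher. A filter of 5 FPKM, which drops Prox1 and Onecut1, left 444 genes higher, 1 fetal gene higher and a target median of 0.052. Centred on the all-gene median, 960 genes were higher and 660 lower (691 and 1072 as reported), 1 of the 9 factors, 1 other liver factor and 1 target were higher, and the medians of other liver factors and targets were -0.28 and 0.055. At 1.5-fold, 1555 genes were higher and 3026 lower, with 1 of the 9 factors, 1 other factor and 6 targets higher, and 3, 10 and 21 lower. With the GC and length trend removed, the median of the 9 was -0.37, and 1 other liver factor was higher, beside 539 genes in all. The causes of these shifts were not tested. Filters and the threshold cannot move the value of a single factor. Of 45 such values under the other 5 alternatives, 32 moved by less than the distance from middle to end of their log2 counting interval. The 13 others moved farther, and 5 of the 45 had another sign (Cebpa, Foxa1, Foxa2 and Prox1). Depth limits Onecut1 most.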
